A study of Caenorhabditis elegans with 7 samples.

Results

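The comparison set out here is rnp-2(tm4058) against wildtype within experiment 2, with 1 small RNA library on each side, so it rests on 2 of the 7 libraries of the series. Both libraries came from Caenorhabditis elegans embryos in the N2 background that had been freed from adults with hypochlorite, and their small RNA was cut from a gel. The labels name the tm4058 allele but not its lesion, and wildtype is the N2 strain itself. A second rnp-2 allele of the same experiment, rnp-2(mg582), and the wildtype library of experiment 1 are given beside the pair where they help to read it. The other 3 libraries of experiment 1 have the genotypes rnp-3(ok1424), mog-2(ok1221) and rnp-2(mg582). They entered the pooled test, the scaling of libraries, the merging of introns and the choice of listed junctions, and are not compared otherwise. Separate cultures are not named in the labels, so a p-value here measures how much these few libraries vary, which could be technical variation.

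RNP-2 is a worm relative of the A protein of the U1 snRNP, the particle that pairs with the donor end of an intron when a transcript is first recognised for splicing. In C. elegans, many transcripts are also copied by RNA-dependent RNA polymerases into small interfering RNAs, which Argonaute proteins carry to matching RNAs. A small RNA that spans 2 joined exons can only have been made on, or match, a spliced transcript, whereas one that spans an exon and its intron belongs to unspliced RNA. The deposited table counts such reads at intron ends, in columns headed EEJ and IEJ, read here as exon-exon (spliced) and intron-exon (unspliced) junctions. The values are therefore small RNA reads at junctions and not levels of messenger RNA.

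Small RNA reads at the listed junctions made up a far smaller part of the rnp-2(tm4058) library than of its wildtype partner. They were 0.0563% of the rnp-2(tm4058) library (80451 of 142819946 reads), 0.235% of rnp-2(mg582) 2 and 0.578% of wildtype 2 (510700 of 88364327 reads). The share in rnp-2(tm4058) was thus 10.3-fold lower than in wildtype 2, with a ratio of 0.0975 (95% interval 0.0967 to 0.0982, counting error only). Spliced reads were 10.38-fold lower as a share of the library, at 73850 reads in rnp-2(tm4058) and 474284 in wildtype 2. Unspliced reads were 8.92-fold lower, at 6601 in rnp-2(tm4058) and 36416 in wildtype 2. For scale, the share of rnp-2(mg582) 2 was 2.46-fold lower than that of wildtype 2, and the share of wildtype 2 was itself 2.66-fold lower than the 1.54% of wildtype 1. With 1 library a side this drop has no replicate check. A share also falls where other reads fill more of a library. That, fewer cells of a type and less RNA per cell cannot be told apart in whole embryos.

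**Figure D1:**
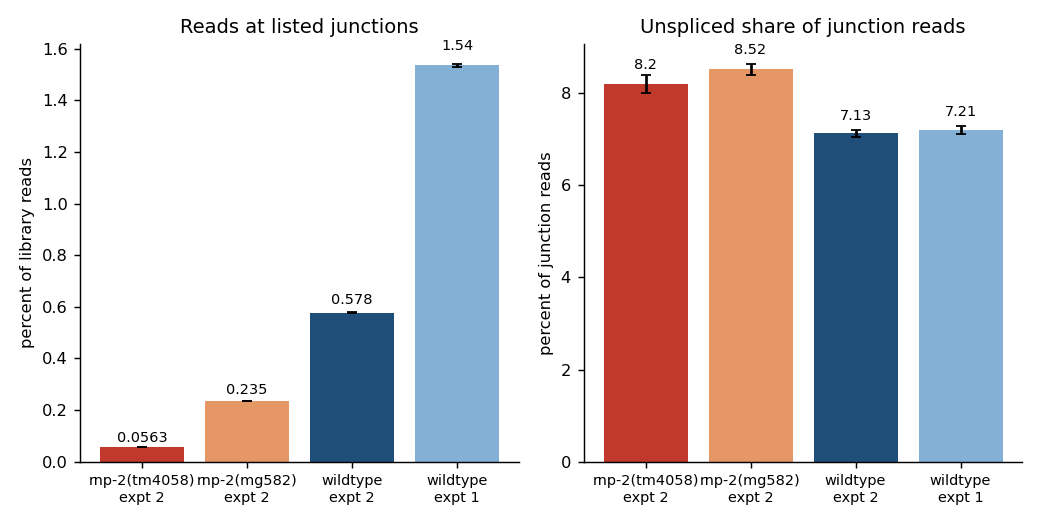
Bars give, for 4 libraries, reads at the listed junctions as a percent of all library reads (left) and unspliced reads as a percent of junction reads (right), with 95% exact binomial intervals. The rnp-2(tm4058) bar on the left, at 0.0563%, is the lowest, and on the right both rnp-2 libraries lie above both wildtype libraries.

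Because nearly every gene had a lower share of the rnp-2(tm4058) library, genes were compared on 2 scales. The first is the share of library reads. The second, called scaled CPM, divides each library by a size that matches the bulk of genes (TMM), which removes a shift of 10.1-fold, or -3.34 on the log2 scale, between the 2 libraries. A level of 1 scaled CPM corresponds to 12.08 spliced reads in rnp-2(tm4058) and 75.58 in wildtype 2, so the mutant library is the less precise side of every ratio. Of the 3717 genes listed, 872 averaged at least 1 scaled CPM over the pair. Only 13 of these 872 had a higher share of the library in rnp-2(tm4058) than in wildtype 2, and the counting interval of the ratio lay above 1 for 5 of them. Lines were listed for reaching 0.505 CPM in any library, which 3263 did in wildtype 2, 331 in rnp-2(tm4058) and 2 in rnp-2(tm4058) alone. The list thus favours lower values in rnp-2(tm4058). The share above, this count and the balance of falls over rises below are partly set by it.

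Relative to the bulk, 19 of the 872 genes were at least 4-fold higher in rnp-2(tm4058) than in wildtype 2, which is 2.18%, and 43 were at least 4-fold lower, which is 4.93%. For this threshold 0.5 was added to each scaled CPM before the ratio was taken. By the same rule 1 of 852 genes (0.117%) was higher and 0 were lower in wildtype 2 over wildtype 1. That pair was read more deeply (75.58 and 48.95 reads per scaled CPM, against 12.08 in rnp-2(tm4058)), so its ratios carry less counting error. In rnp-2(mg582) 2, which shares wildtype 2 as its comparison, 25 of 867 genes were higher (2.88%) and 26 lower (3.0%). The central 90% of genes ran from -1.94 to 1.30 in rnp-2(tm4058) over wildtype 2 and from -0.63 to 0.82 in wildtype 2 over wildtype 1, both as log2 of scaled CPM + 0.5. The pooled test, unless blocked by experiment, sets rnp-2(tm4058) against the mean of both wildtype libraries and not against wildtype 2 alone. In the test over all 7 libraries, which takes the spread of rnp-2(tm4058) from the wildtype and rnp-2(mg582) pairs, 142 of 2846 genes rose (4.99%) and 181 fell (6.36%) at an adjusted p under 0.05 (limma). Of the genes past 4-fold, 18 of the 19 higher and 39 of the 43 lower ones were among them. With edgeR's quasi-likelihood test on the recovered reads 99 genes rose (3.48%) and 68 fell (2.39%), and 166 of these 167 were also called by limma. With the experiment number as a replicate block limma called 606 genes, 240 higher (8.43%) and 366 lower (12.9%). Without wildtype 1, rnp-2(mg582) 1 or rnp-2(mg582) 2 the count was 190, 147 or 153, and 1832 of the 2846 genes tested had fewer than 10 reads in rnp-2(tm4058).

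**Figure D2:**
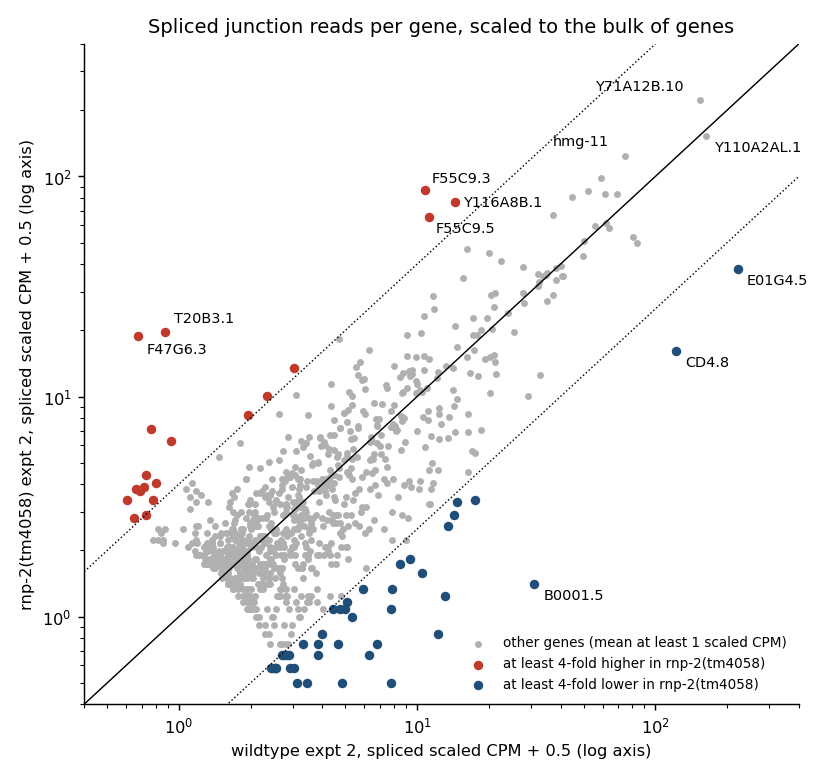
Each point is 1 of the 872 genes averaging at least 1 scaled CPM, with spliced scaled CPM + 0.5 in wildtype 2 on the horizontal and in rnp-2(tm4058) on the vertical log axis. The solid line marks equal values and the dotted lines 4-fold, with 19 genes above and 43 below them.

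Named by a fixed rule were 7 rises and 10 falls, with at least 5 scaled CPM on average, a ratio past 4-fold and an rnp-2(tm4058) value outside both wildtype libraries. The furthest rise was F47G6.3 (chromosome I, 1465597 to 1469593), whose 5 listed introns held 221 spliced reads in rnp-2(tm4058) and 13 in wildtype 2. Its level was 18.3 scaled CPM in rnp-2(tm4058) and 17.7 in rnp-2(mg582) 2, against 0.172 in wildtype 2 and 0.245 in wildtype 1. The 2 mutant libraries stood together, far above both wildtype libraries, and all 5 introns were higher in rnp-2(tm4058). It is also among the few genes whose share of the whole library was higher, by 10.5-fold (6.03 to 20.1), and it passed the test (limma log2 change 4.73 ± 0.34 SE, adjusted p = 0.00118).

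T20B3.1 (chromosome V, 16815561 to 16820716) followed the same pattern over 8 listed introns, all of them higher in rnp-2(tm4058). It had 232 spliced reads in rnp-2(tm4058) and 28 in wildtype 2, that is 19.2 scaled CPM in rnp-2(tm4058) and 18.5 in rnp-2(mg582) 2, against 0.371 in wildtype 2 and 0.409 in wildtype 1. The rise was 51.9-fold relative to the bulk (34.9 to 79.7) and 5.13-fold as a share of the library, with a limma adjusted p of 0.00118. Most of its reads came from 1 intron (16820404 to 16820451), which held 151 reads in rnp-2(tm4058) and 15 in wildtype 2.

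F55C9.3 and F55C9.5, neighbours on chromosome V and both known targets of the ERGO-1 pathway, rose with many reads behind them. ERGO-1 is an Argonaute protein whose small RNAs in embryos match poorly conserved, often duplicated genes with few introns. F55C9.3 (19287009 to 19288173) had 1041 spliced reads in rnp-2(tm4058) and 775 in wildtype 2, or 86.2 scaled CPM in rnp-2(tm4058) and 172 in rnp-2(mg582) 2, against 10.3 in wildtype 2 and 13.5 in wildtype 1. The rise relative to the bulk was 8.41-fold (7.65 to 9.24, limma adjusted p = 0.00635), while as a share of the library the gene was 1.20-fold lower. F55C9.5 (19290574 to 19293125) reached 65.1 scaled CPM in rnp-2(tm4058) and 120 in rnp-2(mg582) 2, against 10.7 in wildtype 2 and 9.01 in wildtype 1. Its rise was 6.09-fold (5.51 to 6.72, limma adjusted p = 0.0182), and its share of the library was 1.66-fold lower. How the authors placed reads that match several genes is not given in the sources used here.

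The remaining rises were smaller. Y116A8B.1 (chromosome IV, 17216348 to 17217399) had 76.3 scaled CPM in rnp-2(tm4058) and 56.0 in rnp-2(mg582) 2, against 13.9 in wildtype 2 and 8.54 in wildtype 1 (5.50-fold higher, limma adjusted p = 0.00635). The gene nfm-1, a worm homolog of the merlin tumour suppressor, had 157 spliced reads in rnp-2(tm4058) and 191 in wildtype 2, a rise of 5.14-fold relative to the bulk (4.14 to 6.39), with 8.99 scaled CPM in rnp-2(mg582) 2, against 2.53 in wildtype 2 and 4.97 in wildtype 1. It was higher in rnp-2(tm4058) at 8 of its 9 listed introns, with a limma adjusted p of 0.0386 that reached 0.0891 with 1 library left out. The gene scrt-1, of the Scratch family of zinc-finger transcription factors, had 9.52 scaled CPM in rnp-2(tm4058) and 10.6 in rnp-2(mg582) 2, against 1.85 in wildtype 2 and 2.55 in wildtype 1. Its limma adjusted p was 0.0130, and 0.0527 at the highest with 1 library left out. As shares of the library these 3 genes were 1.84-fold, 1.97-fold and 1.97-fold lower in rnp-2(tm4058), in the order given.

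The falls included the 2 called genes with the most spliced reads in wildtype 2. E01G4.5, another known ERGO-1 target (chromosome II, 13472401 to 13473995), had 452 spliced reads in rnp-2(tm4058) and 16695 in wildtype 2. Its level was 37.4 scaled CPM in rnp-2(tm4058) and 46.8 in rnp-2(mg582) 2, against 220.9 in wildtype 2 and 151.3 in wildtype 1. The mutant and wildtype libraries did not overlap, and all 5 listed introns were lower in rnp-2(tm4058). The fall was 5.90-fold relative to the bulk (5.38 to 6.50) and 59.7-fold as a share of the library, with a limma adjusted p of 0.00635. CD4.8 (chromosome V, 5599145 to 5601363) fell 7.78-fold (6.73 to 9.03, limma adjusted p = 0.00635), at 15.6 scaled CPM in rnp-2(tm4058) and 19.5 in rnp-2(mg582) 2, against 121.7 in wildtype 2 and 100.6 in wildtype 1.

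The largest falls in fold were of genes that almost left the junction table. B0001.5 (chromosome IV, 12141165 to 12143331) had 11 spliced reads in rnp-2(tm4058) and 2306 in wildtype 2, a fall of 33.5-fold relative to the bulk (18.7 to 67.2, limma adjusted p = 0.00228). Its levels were 0.911 scaled CPM in rnp-2(tm4058) and 0.814 in rnp-2(mg582) 2, against 30.5 in wildtype 2 and 21.5 in wildtype 1, and 2187 of the wildtype 2 reads lay at 1 intron (12143158 to 12143203). F52D2.12 had 4 reads in rnp-2(tm4058) and 890 in wildtype 2, or 0.331 scaled CPM against 11.8. The homeobox gene ceh-82 had 9 reads in rnp-2(tm4058) and 950 in wildtype 2, or 0.745 scaled CPM against 12.6. Both fell in the test, with limma adjusted p of 0.00635 and 0.00538.

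The other falls lay between 5.72-fold and 9.31-fold relative to the bulk. K08F11.1 had 13 reads in rnp-2(tm4058) and 757 in wildtype 2, T13C5.6 had 25 and 980, Y54G2A.19 had 35 and 1280, and Y54E2A.4 had 16 and 665, with rnp-2(tm4058) first in each pair. The gene osm-3, a kinesin motor of sensory cilia, had 29 reads in rnp-2(tm4058) and 1037 in wildtype 2, or 2.40 scaled CPM in rnp-2(tm4058) and 4.25 in rnp-2(mg582) 2, against 13.7 in wildtype 2 and 8.66 in wildtype 1. Limma adjusted p-values of these 5 genes ran from 0.00635 to 0.0441. With 1 library left out, that of Y54E2A.4 reached 0.108 and that of osm-3 reached 0.0641, and Y54E2A.4 did not pass with edgeR (adjusted p = 0.0738). The rule for falls was also met, outside the first 10, by F13H10.9 (21 reads in rnp-2(tm4058), 639 in wildtype 2) and by fbxa-120.

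**Figure D3:**
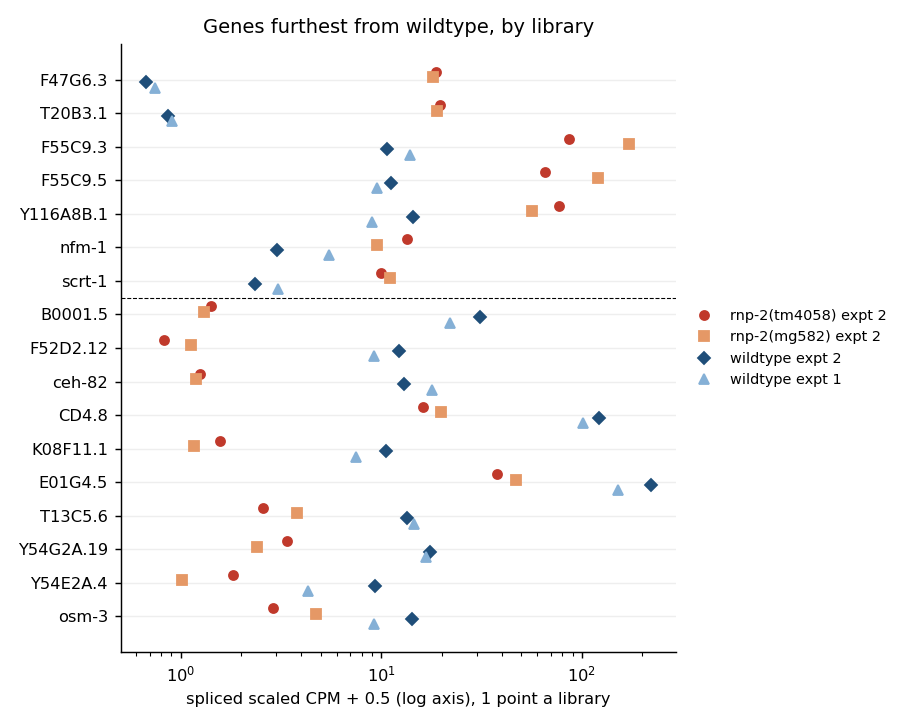
Spliced scaled CPM + 0.5 on a log axis for the 7 named rises (above the dashed line) and 10 named falls (below it), 1 point per library. In each gene the rnp-2(tm4058) and rnp-2(mg582) libraries of experiment 2 lie on the same side of both wildtype libraries, and the 2 mutants share wildtype 2 as their comparison.

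The other 3 genes with a counting interval above 1 as a share of the library lay under the level the rule asks for, and were chosen after their values were seen. The gene daf-7, which encodes the TGF-beta ligand of the dauer pathway, had 35 reads in rnp-2(tm4058) and 8 in wildtype 2, or 2.90 scaled CPM against 0.106 (limma adjusted p = 0.00859). The gene acc-4, an acetylcholine-gated chloride channel subunit, had 40 reads in rnp-2(tm4058) and 12 in wildtype 2 (limma adjusted p = 0.0154). The gene unc-73, a guanine nucleotide exchange factor of the Trio family, had 80 reads in rnp-2(tm4058) and 20 in wildtype 2 at its single listed intron. Its level was 6.62 scaled CPM in rnp-2(tm4058) and 0.995 in rnp-2(mg582) 2, against 0.265 in wildtype 2 and 0 reads in wildtype 1 (limma adjusted p = 0.0104). Unlike F47G6.3 and T20B3.1, where the levels of the 2 alleles lay side by side, unc-73 was lower in rnp-2(mg582) 2, a difference that was not tested.

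The 5 highest genes in rnp-2(tm4058) were Y71A12B.10, Y110A2AL.1, hmg-11, B0250.8 and F55C9.3. Y110A2AL.1 had 152.7 scaled CPM in rnp-2(tm4058) and 161.4 in rnp-2(mg582) 2, against 163.2 in wildtype 2 and 162.1 in wildtype 1 (limma adjusted p = 0.718), while its share of the library was 10.8-fold lower. Y71A12B.10 had 222 scaled CPM in rnp-2(tm4058) and 153.9 in wildtype 2, a ratio of 1.44 (1.38 to 1.51), which passed the test only with the replicate block (limma adjusted p = 0.0556, and 0.0233 with the block). The gene hmg-11, which encodes a high mobility group protein, had 124 scaled CPM in rnp-2(tm4058) and 73.8 in wildtype 2, and rose by limma (adjusted p = 0.0393) but not by edgeR (adjusted p = 0.0676). B0250.8 had 97.5 scaled CPM in rnp-2(tm4058) and 58.7 in wildtype 2, a ratio of 1.66 (1.56 to 1.77), again past the test only with the block (limma adjusted p = 0.0780, and 0.0240 with the block). The mutated gene itself is nearly silent in this table: rnp-2 had 1 spliced read in rnp-2(tm4058) and 15 in wildtype 2, its paralog rnp-3 had 2 and 8, and these counts check no label. The gene mog-2 was not analysed here.

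Gene groups were read by how many members passed the limma test and by their median log2 ratio, beside a median of -0.06 over all 2846 genes tested. Of all these genes 4.99% rose and 6.36% fell by limma, 3.48% and 2.39% by edgeR, and 8.43% and 12.9% by limma with the replicate block, and the counts below are to be read against these shares. The list of known ERGO-1 targets had 13 tested members, of which 3 rose and 2 fell by limma and by edgeR, and 4 rose and 2 fell with the replicate block. The rises were Y116F11A.1, F55C9.5 and F55C9.3, and the falls were F39F10.4 and E01G4.5. Y116F11A.1 had 215 reads in rnp-2(tm4058) and 317 in wildtype 2, or 17.8 scaled CPM against 4.19 (limma adjusted p = 0.0123). F39F10.4 had 2 reads in rnp-2(tm4058) and 436 in wildtype 2, or 0.166 scaled CPM against 5.77 (limma adjusted p = 0.00635). The list median was 0.85, which is 0.91 above that of all genes. That margin was 0.33 over wildtype 1, and with library size alone it was -0.26. The summed level was 231 scaled CPM in rnp-2(tm4058), against 268.4 in wildtype 2 and 209.9 in wildtype 1, so its direction differed between the wildtype libraries. E01G4.5 gave 452 of the list's 2790 reads in rnp-2(tm4058) and 16695 of 20285 in wildtype 2. Members that did not pass included C40A11.10 (10.35 scaled CPM in rnp-2(tm4058), 5.53 in wildtype 2) and T05E12.8 (3.48 scaled CPM in rnp-2(tm4058), 6.17 in wildtype 2). Of the 16 listed members 2 were at 0 in both libraries.

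Among 27 tested genes for RNA interference factors 3 rose and 0 fell by limma and by edgeR, and with the replicate block 3 rose and 3 fell. Among all genes 4.99% rose and 6.36% fell by limma. The gene zfp-1 is a homolog of the chromatin factor AF10. It had 44.6 scaled CPM in rnp-2(tm4058) and 41.4 in rnp-2(mg582) 2, against 19.6 in wildtype 2 and 22.3 in wildtype 1. It rose with all libraries in the fit (limma adjusted p = 0.0255), a call lost with any 1 wildtype or rnp-2(mg582) library left out. The gene rde-11, a RING-finger protein of the exogenous RNAi pathway, had 24.4 scaled CPM in rnp-2(tm4058) and 11.3 in wildtype 2 (limma adjusted p = 0.0386, at most 0.153 with 1 library left out). The gene sid-2, which encodes the gut transporter for double-stranded RNA, had 14 reads in rnp-2(tm4058) and 0 in both wildtype libraries (limma adjusted p = 0.00648). The helicase gene eri-6, needed for the ERGO-1 pathway, had 9.85 scaled CPM in rnp-2(tm4058) and 12.3 in rnp-2(mg582) 2, against 19.8 in wildtype 2 and 22.6 in wildtype 1, with a limma adjusted p of 0.0566 that became 0.0122 with the block. On the library share all 4 of these levels except that of sid-2 were lower in rnp-2(tm4058).

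The F-box and MATH family, protein families with many near-identical copies in worms, had 66 tested members, of which 1 rose and 8 fell by limma, 1 and 4 by edgeR, and 3 and 12 with the replicate block. Over all genes the shares falling were 6.36% by limma, 2.39% by edgeR and 12.9% with the block. The list median was -0.11, which is -0.05 against that of all genes, -0.26 over wildtype 1 and -0.40 with library size alone. The member with the most reads, bath-45, was level at 58.9 scaled CPM in rnp-2(tm4058) and 55.3 in wildtype 2 (limma adjusted p = 0.768). Falls included fbxa-149, annotated as a pseudogene, at 9.604 scaled CPM in rnp-2(tm4058) and 28.7 in wildtype 2 (limma adjusted p = 0.0386), fbxa-120 at 2.82 against 14.1 (0.0362) and fbxa-218 at 0.580 against 7.26 (0.00970), with rnp-2(tm4058) first in each. The 1 rise was fbxa-46, at 13.8 scaled CPM in rnp-2(tm4058) and 5.28 in wildtype 2 (limma adjusted p = 0.0402). For fbxa-149, fbxa-120 and fbxa-46 the call was lost with 1 library or another left out.

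Ribosomal protein genes had 18 tested members, of which 0 rose and 4 fell by limma (rpl-11.2, rpl-22, rpl-23 and rpl-31), where 6.36% of all genes fell, and 5 fell with the replicate block. Their median was -0.50, which is -0.44 against that of all genes and 0.02 with library size alone. The counts behind this were small, with 64 reads in rnp-2(tm4058) and 730 in wildtype 2 over the whole list, and edgeR called 0 of them. The most read of the 4, rpl-23, had 3 reads in rnp-2(tm4058) and 91 in wildtype 2. Splicing factors had 18 tested members with 1 rise, snr-2, an Sm protein of the spliceosome (12 reads in rnp-2(tm4058), 19 in wildtype 2), which edgeR did not call, and with the block 1 rose and 1 fell. The SR protein gene rsp-4 had 4.39 scaled CPM in rnp-2(tm4058) and 4.14 in wildtype 2, and the helicase gene snrp-200 had 2.98 and 1.79, neither past the test.

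The other lists gave 0 to 2 calls by limma, where 4.99% of all genes rose and 6.36% fell. Of 14 tested collagen and cuticle genes cutl-15 rose, of 11 translation factors eif-3.F and ife-5 fell, and of 5 histone genes the linker histone hil-3 fell, the last 3 without a call by edgeR. With the replicate block 2 collagen and cuticle genes rose and 2 fell, 1 translation factor rose and 2 fell, and 1 histone gene fell. Among 28 germline and maternal genes and 17 heat shock and stress genes limma and edgeR called 0 at an adjusted p under 0.05, and limma with the block called 1 rise in each, pie-1 and hsp-4. The germline genes cbd-1, pgl-1 and glh-1 had 4.22, 1.57 and 3.23 scaled CPM in rnp-2(tm4058), against 4.19, 2.54 and 1.96 in wildtype 2. In all, 6 of the 10 list medians lay above that of all genes tested, which is a description only.

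**Figure D4:**
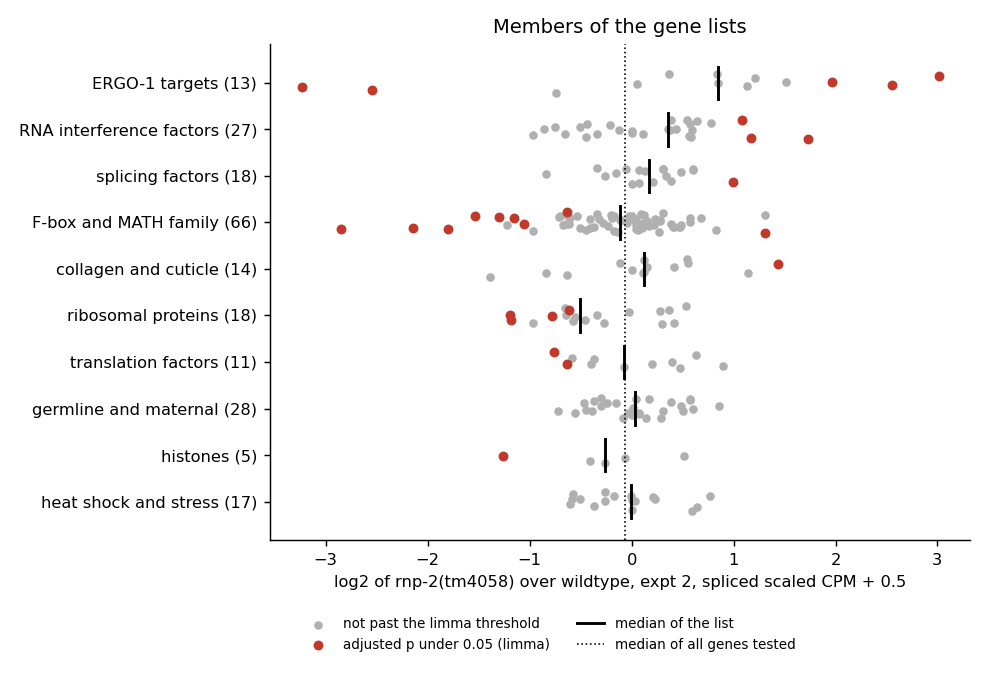
Each point is a tested member of a gene list at its log2 ratio of rnp-2(tm4058) over wildtype 2 (spliced scaled CPM + 0.5), spread vertically for legibility, with tested members in brackets. Black bars mark list medians and the dotted line the median of all genes tested, -0.06. The ERGO-1 list has called genes at both ends.

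Markers of cell types were thinly covered. Of 15 zygotic embryo markers 3 were listed, with 10 reads in all in rnp-2(tm4058) and 48 in wildtype 2, and 0 of 11 intestine markers were listed. Sperm markers had 3 listed members summing to 1.16 scaled CPM in rnp-2(tm4058) and 2.92 in wildtype 2, of which spe-41 fell (3 reads in rnp-2(tm4058), 162 in wildtype 2, limma adjusted p = 0.0102). Muscle markers had 2 listed members, at 1.41 scaled CPM in rnp-2(tm4058) and 1.27 in wildtype 2. Neuron markers had 4, at 26.7 scaled CPM in rnp-2(tm4058) and 28.3 in wildtype 2, nearly all from unc-10, while rab-3 and ric-4 were at 0 reads in rnp-2(tm4058). Small RNA reads do not give the levels of these transcripts, so the embryo label could not be checked, and the part of cell makeup in the results was not tested.

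The unspliced share of junction reads was close between the libraries. It was 8.20% in rnp-2(tm4058) (95% interval 8.016% to 8.397%) and 8.52% in rnp-2(mg582) 2, against 7.13% in wildtype 2 (7.06% to 7.20%) and 7.21% in wildtype 1. The excess of rnp-2(tm4058) over wildtype 2 was 1.07 points. It was 0.816 points at donor ends alone (3.56% in rnp-2(tm4058), 2.75% in wildtype 2) and 0.997 points over wildtype 1. It shrank to 0.186 points at acceptor ends alone and to 0.260 points without the 10 introns with most unspliced reads in each library. Single introns were compared where both libraries had at least 20 reads, which left 623.

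Of these 623 introns 11 had an unspliced share at least 20 points higher in rnp-2(tm4058) than in wildtype 2, which is 1.77%, and 2 had one at least 20 points lower, which is 0.321%. The same rule called 14 of 2212 introns higher (0.633%) and 2 lower (0.0904%) in wildtype 2 over wildtype 1. In rnp-2(mg582) 2 over wildtype 2 it called 33 of 1562 higher (2.11%) and 5 lower (0.32%). The wildtype pair was read more deeply, with 510700 and 319886 junction reads against 80451 in rnp-2(tm4058). Its shares thus carry less counting error, and the percentages are not on an equal footing. With at least 50 reads in each library, 2 of 251 introns were higher in rnp-2(tm4058) and 0 lower. Over all 623 introns 142 were higher, 257 lower and 224 equal, with a median difference of 0 points, and the central 90% of differences ran from -3.41 to 5.85 points. In the pooled limma test of the ratio of unspliced to spliced reads, 39 of 724 introns rose (5.39%) and 25 fell (3.45%), and with the replicate block 81 rose (11.2%) and 57 fell (7.87%), 138 in all. Leaving out either wildtype library left 0 calls (121 introns at an unadjusted p under 0.05 without wildtype 1, and 162 without wildtype 2), while leaving out either rnp-2(mg582) library gave 135 or 146. The calls on single introns therefore depend on having both wildtype libraries.

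The 8 largest rises and 4 largest falls were named by rule. Donor and acceptor letters are shown for 4 of the rises. For 3 deeply read introns whose share stayed within 10 points the donor letters alone are shown, so only donors can be compared. All letters are copied from the deposited table, 5′ to 3′. Lower case marks 5 exon bases and 4 inner intron bases, and capitals the first 6 intron bases (donor) or last 6 intron bases (acceptor).
C04G2.10 donor: gaaaaGTATGTtttt
C04G2.10 acceptor: tattTTGCAGagctt
W03H9.2 donor: gaacgGTAAGTcaat
W03H9.2 acceptor: gcggCTTCAGaagcg
W02B12.13 donor: ggattGTAAGTtatt
W02B12.13 acceptor: tataGTTCAGaacac
T07E3.2 donor: agaaaGTTCGTtttt
T07E3.2 acceptor: aacaTTTCAGaacaa
Y110A2AL.1 donor: ttttcGTGAGTtaac
CD4.8 donor: acattGTGAGGagag
E01G4.5 donor: tttgtGTAAGTgtaa
The 4 risen introns shown hold differing donors, and GTAAGT stands in W03H9.2 and W02B12.13 as well as in E01G4.5, whose intron (chromosome II, 13473785 to 13473829) had an unspliced share of 0% in rnp-2(tm4058) and 0.217% in wildtype 2. Of the 9 donor letters CAG followed by GTAAGT, the 4 shown match 6, 7, 6 and 5, in the order given. The risen introns of K08F11.1, F28H6.6 and tpk-1, not shown, match 4 each. Among the deeply read introns Y110A2AL.1 matches 5, CD4.8 matches 4 and E01G4.5 matches 6.

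The largest rise was in intron 3 of Y20F4.4 (chromosome I, 2040661 to 2041364), which lies between coding exons. Its unspliced share was 96.7% in rnp-2(tm4058) (87 of 90 reads), against 13.6% in wildtype 2 (11 of 81). The share was 89.4% in rnp-2(mg582) 2 and 16.98% in wildtype 1, so that both mutants stood apart from both wildtypes. In rnp-2(tm4058) 86 of the unspliced reads lay at the donor end and 1 at the acceptor end, while in wildtype 2 there were 6 and 5. Spliced reads numbered 3 in rnp-2(tm4058) and 70 in wildtype 2.

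C04G2.10 intron 2 (chromosome IV, 10116862 to 10117164) also had its unspliced reads at the donor end, 14 of 14 in rnp-2(tm4058) and 6 of 7 in wildtype 2. Its unspliced share was 66.7% in rnp-2(tm4058) (43.0% to 85.4%) and 42.6% in rnp-2(mg582) 2, against 10.1% in wildtype 2 (4.18% to 19.8%) and 3.51% in wildtype 1. In W02B12.13 intron 2 (chromosome II, 11445481 to 11446166) they lay at the acceptor end instead, 25 of 25 in rnp-2(tm4058) and 22 of 22 in wildtype 2. There the share was 61.0% in rnp-2(tm4058) (44.5% to 75.8%) and 63.8% in rnp-2(mg582) 2, against 19.6% in wildtype 2 (12.7% to 28.2%) and 18.3% in wildtype 1. Reads from 1 end of an intron show RNA that crosses that end, and do not show that the whole intron was kept.

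W03H9.2 intron 1 (chromosome II, 14143743 to 14143787), in a non-coding transcript, had unspliced reads at both ends, 31 at the donor and 14 at the acceptor in rnp-2(tm4058). Its share was 91.8% in rnp-2(tm4058) (45 of 49 reads) and 94.7% in rnp-2(mg582) 2, against 44.4% in wildtype 2 (110 of 248) and 39.5% in wildtype 1. T07E3.2 intron 2 (chromosome III, 6907689 to 6907735) was largely unspliced in wildtype already, at 97.5% in rnp-2(tm4058) (39 of 40 reads) and 72.5% in wildtype 2 (58 of 80). Y105E8A.28 intron 2 (chromosome I, 14498053 to 14498094) had a share of 27.7% in rnp-2(tm4058) and 18.1% in rnp-2(mg582) 2, against 2.24% in wildtype 2 and 3.47% in wildtype 1. In the pooled test these 6 introns, from Y20F4.4 on, rose with limma adjusted p from 0.0164 to 0.0206.

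K08F11.1 (chromosome IV, 4725023 to 4725069) stood out in both measures, which share its spliced reads. Its single intron was 45.8% unspliced in rnp-2(tm4058), against 9.23% in wildtype 2 and 20.9% in wildtype 1. Spliced reads were 13 in rnp-2(tm4058), against 757 in wildtype 2. Relative to the bulk (12.08 and 75.58 reads per scaled CPM) its unspliced reads were near level. The higher share thus largely repeats the fall in spliced reads. Unspliced reads were 11 in rnp-2(tm4058) and 77 in wildtype 2, and the difference in share passed the test only with the replicate block (limma adjusted p = 0.106, and 0.00940 with the block). The donor end of an eri-6 intron (chromosome I, at 4464960) had a share of 79.7% in rnp-2(tm4058) (188 of 236 reads) and 77.9% in rnp-2(mg582) 2, against 54.7% in wildtype 2 (714 of 1305) and 65.5% in wildtype 1 (limma adjusted p = 0.0597, and 0.0168 with the block). A second eri-6 intron (4465907 to 4465950) was at 26.9% in rnp-2(tm4058) and 4.71% in wildtype 2, with 7 unspliced reads in rnp-2(tm4058) and 14 in wildtype 2 (limma adjusted p = 0.0743, and 0.0312 with the block). The other introns past 20 points were in F28H6.6 (23.8% in rnp-2(tm4058), 1.15% in wildtype 2) and tpk-1, a thiamine pyrophosphokinase gene (83.3% in rnp-2(tm4058), 60.8% in wildtype 2, limma adjusted p = 0.0516, and 0.0395 with the block). Just inside the threshold lay that eri-6 intron at 22.2 points, and just outside it an unc-10 intron at 18.3 points and a B0250.8 intron at 18.2 points.

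Both introns past 20 points downward had intermediate to high unspliced shares in wildtype. Y71A12B.11 intron 1 (chromosome I, 13978497 to 13979180) was at 16.7% in rnp-2(tm4058) (8 of 48 reads) and 32.9% in rnp-2(mg582) 2, against 62.1% in wildtype 2 (64 of 103) and 45.3% in wildtype 1. An intron end in Y53F4B.5 (chromosome II, 14982919) was at 69.6% in rnp-2(tm4058) and 92.2% in wildtype 2. The next 2 falls were C32B5.6 (0 of 20 reads in rnp-2(tm4058), 95% exact interval up to 16.8%, and 33 of 183 in wildtype 2) and intron 2 of Y116A8B.1. The Y116A8B.1 intron (chromosome IV, 17216951 to 17217003) was at 3.13% in rnp-2(tm4058) (13 of 415 reads) and 9.34% in rnp-2(mg582) 2, against 14.9% in wildtype 2 (107 of 716) and 14.4% in wildtype 1, in a gene whose spliced level rose. Limma adjusted p was 0.0469 for Y71A12B.11, 0.0386 for Y53F4B.5, 0.0178 for Y116A8B.1 and 0.859 for C32B5.6.

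**Figure D5:**
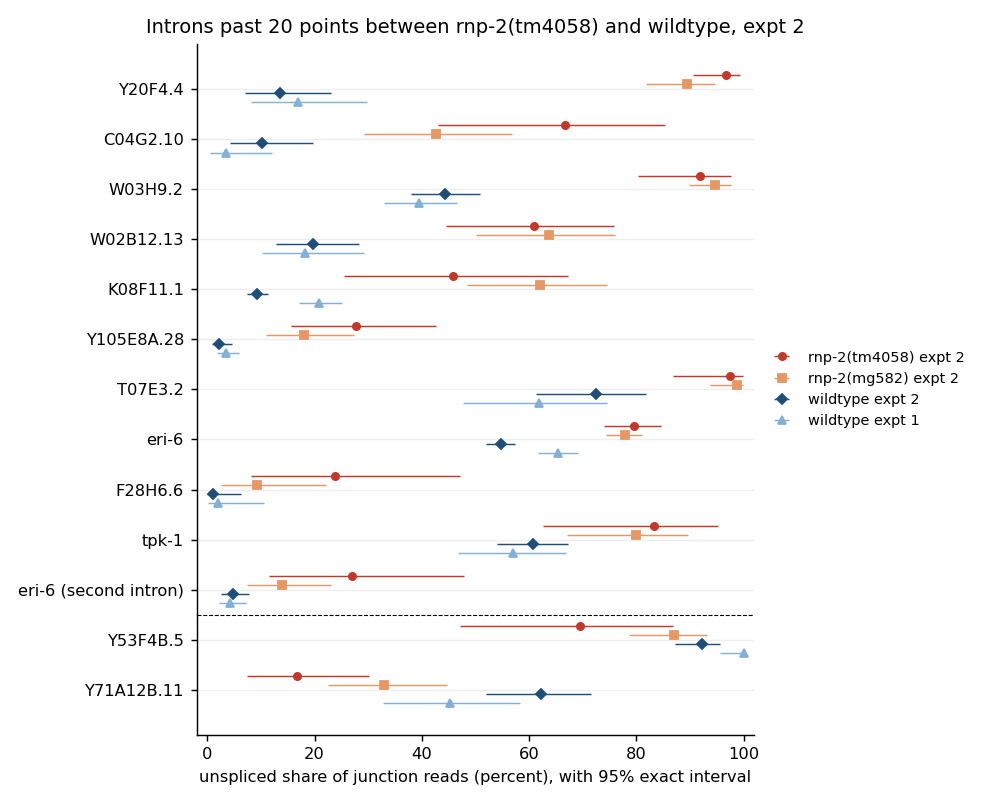
Unspliced share of junction reads in percent, with 95% exact binomial intervals, for the 11 introns at least 20 points higher in rnp-2(tm4058) than in wildtype 2 (above the dashed line) and the 2 at least 20 points lower (below it). In Y20F4.4 the rnp-2(tm4058) and rnp-2(mg582) shares, 96.7% and 89.4%, lie far above the wildtype shares, 13.58% and 16.98%.

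The letters at the splice sites were counted on the transcript strand in the 11 introns past 20 points upward and in all 623. The donor letters GTAAG stood in 3 of the 11 (27.3%) and in 27.8% of all, and GTATG in 1 of the 11 (9.09%) and in 4.82% of all. A G as the last exon base stood in 3 of the 11 (27.3%) and in 58.1% of all, and the acceptor letters TTTCAG in 5 of the 11 (45.5%) and in 54.6% of all. The number of donor letters matching the exon end CAG followed by GTAAGT had a median of 6 in both sets, and the median intron length was 47 bases in the 11 and 66 in all. With 11 introns these shares are a description with no test.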

How the data were processed

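Small RNA of 7 embryo libraries was sequenced, and the deposited values are CPM per intron end, which the authors gave as 1 spliced (EEJ) and 1 unspliced (IEJ) column per library. The tools were SAMtools and STAR, per the submitters' processing notes. Not given in the sources used here were the genome build, the treatment of reads with several matches and the use of strand, so overlapping, antisense and near-identical genes cannot be told apart. Of the 14533 lines with values 98.1% match intron boundaries of the WBcel235 annotation. Coordinates are 1-based: intron ends are deposited positions, intron starts are deposited positions plus 1, and gene spans are those of WBcel235. Each line reached at least 0.505 CPM in some library, which needs 73 reads in rnp-2(tm4058) and 45 in wildtype 2. That level was reached at 331 lines in rnp-2(tm4058) and 3263 in wildtype 2, and at 2 lines in rnp-2(tm4058) alone, so the list leans to junctions read in the other libraries.

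Every CPM value was a whole multiple of 1 step per library (100% of values, within 1e-06 reads), so reads and library totals (9901228 to 142819946) were recovered. Lines were joined into 7678 introns. Within a gene, introns with at least 20 spliced reads that differed by no more than 5%, summed over the libraries, were counted once (643 introns became 252), which left 7287 junctions in 3717 genes. Gene names matched the annotation for 3169 genes by name, 453 by older name and 89 by position, and 6 stayed unmatched.

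Scaled CPM used TMM factors from edgeR 4.0.16 on spliced reads per gene (0.0846 for rnp-2(tm4058), 0.855 for wildtype 2). A pseudocount of 0.5 enters each log2 ratio and each 4-fold threshold, including that of the naming rule. Folds printed for single genes have none. Intervals are exact (Clopper-Pearson, 95%) and cover counting error only, since reads are not independent molecules. The test was limma 3.58.1 (trended, Benjamini-Hochberg) on log2(scaled CPM + 0.5), after edgeR's filterByExpr (minimum count 10, total 15), with 1 coefficient per genotype over the 7 libraries in R 4.3.3. The single rnp-2(tm4058) library is thereby assumed to vary like the genotypes with 2. Its coefficient is taken against the mean of both wildtype libraries, while the folds printed beside the p-values are over wildtype 2 alone. The nfm-1 log2 change, for example, was 1.73 in the fit and 2.16 over wildtype 2. The edgeR quasi-likelihood test and DESeq2 1.42.0 on recovered reads were alternatives. On simulated data limma recovered 94% of genes changed 4-fold and edgeR 86%, and both recovered 100% of those changed 16-fold. Limma also called 73 of 2646 unchanged genes, among 267 calls, and edgeR called 9, among 195 calls. At a mean of at least 5 scaled CPM each called 1 of 174 unchanged genes. A limma adjusted p under 0.05 was therefore too lenient for genes of low level. Sample titles carry an experiment number shared by libraries, and the deviations of same-numbered wildtype and rnp-2(mg582) libraries correlated at 0.399 across 2846 genes, which are not independent replicates, so a fit with the experiment as replicate block stands beside the main one where it changes a call or a count of a list. That blocked fit spends a further coefficient on the same 7 libraries, so its spread rests on less replication than that of the main fit.

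Genes were named by a rule: among those averaging at least 5 scaled CPM, past 4-fold and outside both wildtype libraries, up to 10 rises and 10 falls; the 5 highest in rnp-2(tm4058); the 3 highest members of each list; and the mutated genes. The introns named are the 8 largest rises and 4 largest falls with at least 20 reads. The comparison, the gene lists and the rules were chosen with earlier results of these data known.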

Additional observations from a re-analysis of the deposited data

How the results depend on the processing

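The lower share of junction reads in rnp-2(tm4058) kept its direction in each alternative. The ratio was 0.0367 over wildtype 1 and 0.101 without the 10 genes with most reads. None of these alternatives changed the rule by which junctions were listed, which favours lower values in rnp-2(tm4058). The excess in unspliced share was 0.816 points at donor ends and 0.997 over wildtype 1, but 0.186 at acceptor ends and 0.260 without the top 10 introns. The difference of the medians over introns was -0.532 points, with the rnp-2(tm4058) median at its floor of 0% and a median difference per intron of 0 points, so it shows no reversal. Of 62 genes past 4-fold among 872, the count became 368 of 483 with library size alone (0 higher, 368 lower). It was 98 with a pseudocount of 0.1, 25 with 1, and 19 of 219 with a mean of at least 5. Of 323 limma calls (142 higher, 181 lower), the count became 0 with library size alone (53 at an unadjusted p under 0.05) and 0 with no filter (904 unadjusted). It was 66 of 222 with a mean of at least 5 (29 higher, 37 lower). With the experiment as replicate block it was 606 (240 higher, 366 lower). Rises outnumbered falls with edgeR (167 calls, 99 higher and 68 lower) and with DESeq2 (114 calls, 67 higher and 47 lower). The same held, chosen after seeing the data, among 1014 genes with at least 10 reads in rnp-2(tm4058) (171 calls, 124 higher and 47 lower). Leaving out 1 library gave 147 to 256. With library size alone the log2 change turned negative for F55C9.3 (-1.15), F55C9.5 (-1.27), Y116A8B.1 (-1.20), nfm-1 (-1.83), scrt-1 (-1.50), hmg-11 (-3.23), zfp-1 (-2.82) and rde-11 (-2.49); this follows from the lower share of the whole library.

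Of 13 introns past 20 points among 623, the count became 37 of 1218 with at least 10 reads and 2 of 251 with at least 50. It was 5 of 564 at donor ends, 7 of 585 at acceptor ends and 22 of 623 past 10 points. Of 64 limma calls on introns, the count became 138 with the replicate block and ran from 0 to 146 with 1 library left out. Beyond library size alone, the causes of these differences were not tested. Depth limits the pair on the rnp-2(tm4058) side, where 619 of 3717 genes had 0 spliced reads, against 146 in wildtype 2. A gene with 0 reads in rnp-2(tm4058) may reach 0.248 scaled CPM, the level of 3 reads.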

Other observations

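Among the genes past 4-fold that the naming rule left out for their low level, some have well-known developmental or cellular roles; they are given as values, chosen after the data were seen. The Hox gene mab-5 had 43 spliced reads in rnp-2(tm4058) and 23 in wildtype 2, or 3.56 scaled CPM against 0.304 (limma adjusted p = 0.0104). The gene rgs-3, a regulator of G protein signalling, had 28 reads in rnp-2(tm4058) and 11 in wildtype 2 (limma adjusted p = 0.00635). The gene pqn-32 had 41 reads in rnp-2(tm4058) and 16 in wildtype 2 (limma adjusted p = 0.00970). On the other side, arl-13, a small GTPase of cilia, had 1 read in rnp-2(tm4058) and 147 in wildtype 2 (limma adjusted p = 0.00898), and dyf-3, a gene needed for sensory cilia, had 3 and 476 (limma adjusted p = 0.0371, edgeR adjusted p = 0.0709). The dosage compensation gene sdc-1 had 7 reads in rnp-2(tm4058) and 340 in wildtype 2 (limma adjusted p = 0.0443), a call lost without wildtype 2 or either rnp-2(mg582) library. B0041.11 had 0 reads in rnp-2(tm4058) and 327 in wildtype 2 (limma adjusted p = 0.00635). T05G5.4 also had 0 reads in rnp-2(tm4058), and 548 in wildtype 2, but its 0.511 scaled CPM in wildtype 1 lay far from the 7.25 of wildtype 2, and it passed only with the experiment as replicate block (limma adjusted p = 0.123, and 0.00137 with the block).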
